A study of Mus musculus with 3 samples.

Results

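B_cell_1 is the largest of the 3 B cell clusters that the authors drew among the immune cells of the mouse kidney, and its members are the cells that carry the deposited cluster label B_cell_1. It holds 3759 of the 20266 cells (18.5%) and 86.3% of the 4358 B cells, beside 352 cells of B_cell_2 and 247 of B_cell_3. The cells came from wild-type (wt) and untouched C57BL/6J mice, all males aged 10 weeks. Kidneys were flushed with cold buffer, cut by hand into inner medulla (IM), outer medulla (OM) and cortex, digested with enzymes and sorted for live cells with CD45, the surface antigen shared by leukocytes. Genotype, strain, sex, age and treatment are therefore shared by all groups, which differ in compartment alone. Each compartment was profiled by droplet-based single-cell RNA-seq at the Facilities Aachen, Bonn and Hamburg, so that 9 libraries were compared with the 3 Facilities as replicates. The sort takes every CD45+ cell and does not separate cells that sit in the tissue from cells left in its vessels. How many mice stand behind a library is not given in the sources used here, and p-values refer to the spread between Facilities. For gene levels, edgeR estimates that spread in part across genes.

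B cells recognise antigen through a membrane immunoglobulin, which signals through the Cd79a and Cd79b proteins, and they present the antigen on MHC class II to T cells. A mature B cell expresses a single rearranged heavy chain and a single light chain, of the kappa or the lambda type, so that its variable gene marks the cell and its progeny. Follicular B cells circulate and carry IgM and IgD with the receptors Fcer2a (CD23) and Cr2 (CD21), marginal zone and B-1 cells are innate-like, and plasma cells secrete antibody. The medulla they may enter is poor in oxygen and rich in salt compared with the cortex.

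The libraries held 166 to 983 B_cell_1 cells and 199361 to 2869534 UMIs (unique molecular identifiers, counted molecules) of these cells. The median B_cell_1 cell held 573 to 989.5 UMIs in the Aachen libraries and 2507 to 2850 at Bonn and Hamburg. Malat1, a nuclear long non-coding RNA, made up 5.59 to 8.01% of the UMIs at Aachen and 0.734 to 0.982% elsewhere. Immunoglobulin genes were listed at 0 in every Aachen cell: of 947 genes that were at 0 at Aachen with over 50 UMIs in each other Facility, 134 were immunoglobulin genes, and Hamburg lacked 16 genes in the same way, Cd24a and Isg20 among them. In each Aachen and Bonn library, 0 to 321 genes were found in exactly 1 cell, fewer than the 513 to 605 found in exactly 3 cells, while Hamburg held 1836 to 1880 and 586 to 632, so that a 0 in an Aachen or Bonn library does not show absence. Of the B_cell_1 barcodes, 10 occurred in more than 1 library, and a doublet score marked 16 B_cell_1 cells.

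The B_cell_1 cells carried the markers of B cells. This is a description and no independent support of the label. The clusters were drawn from the same genes, and the authors used Cd79a to name B cells. Cd79a (chr7:24897381-24902197 of GRCm38, plus strand), which encodes the signalling chain of the B cell receptor, was found in 75.9% of the B_cell_1 cells of Aachen, 99.9% of those of Bonn and 99.6% of those of Hamburg. In the T cells of the same Facilities it was found in 4.48%, 4.30% and 2.82%, at median depths of 973, 3274 and 3396 UMIs against 731, 2746.5 and 2548 in B_cell_1. With each cell thinned to 500 UMIs the shares were 61.3%, 89.5% and 81.0% in B_cell_1 against 2.38%, 2.12% and 0.621% in T cells, and 185 B_cell_1 cells of Aachen were too shallow to count. Ms4a1 (CD20) was found in 36.5%, 90.7% and 72.0% of B_cell_1 cells and in 1.82%, 3.05% and 1.53% of T cells. Ebf1, a transcription factor that sets B cell identity, was found in 65.2%, 92.8% and 89.3%, against 4.22%, 3.05% and 1.43%.

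Levels are given in CPM, the UMIs of a gene divided by all UMIs of the B_cell_1 cells of a library and multiplied by 1000000, with no division by gene length. Cd79a stood at 2217, 2108 and 2097 CPM in cortex, OM and IM of Aachen, at 4668, 4387 and 4260 at Bonn and at 3356, 3492 and 3472 at Hamburg. Ms4a1 stood at 592, 553 and 700 CPM at Aachen, at 1027, 1008 and 978 at Bonn and at 545, 587 and 618 at Hamburg. Ebf1 stood at 1605, 1537 and 1465 CPM, at 1081, 1201 and 1060, and at 949, 947 and 977. For Cd79a and Ebf1 the Facilities did not overlap while the compartments of a Facility lay close together, and for Ms4a1 Bonn lay above the other Facilities. Fcer2a reached 148 to 700 CPM and Cr2 48.3 to 195. Cd9 and Cd5, which mark marginal zone and B-1 cells, stood at 4.24 to 21.7 and 0 to 21.4 CPM. Both belong to a list of 12 genes of these cells, of which 9 were high enough to be tested. Their levels do not stand for the whole list. Of its genes, 6 reached a mean of 50 CPM in B_cell_1 or B_cell_2 over the 7 libraries with at least 20 cells of both. Of 10 genes of germinal centre and memory B cells, 7 were too low to be tested, among them S1pr2 and Fas, and Sdc1, a plasma cell marker, was at 0 to 14.1 CPM. Jchain, which joins the secreted IgM and IgA chains, reached 103 CPM in the OM of Aachen and 101 CPM in the cortex of Hamburg, where a single cell held 34 of 34 and 84.7 of 101 UMIs.

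**Figure D1:**
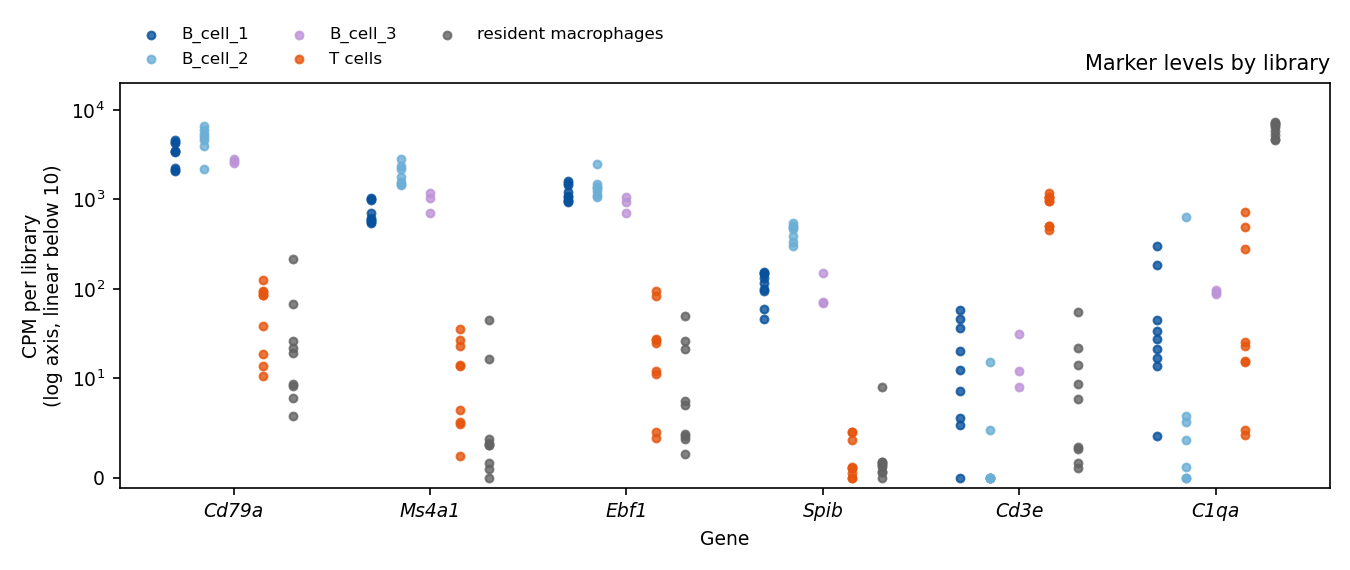
Level of 6 marker genes in B_cell_1, B_cell_2, B_cell_3, T cells and resident macrophages, in CPM on a log axis that is linear below 10; each point is a library with at least 20 cells of the cluster. Cd79a, Ms4a1 and Ebf1 lie above 100 CPM in every B_cell_1 library, with Cd79a between 2097 and 4668, and Spib is lower in B_cell_1 than in B_cell_2.

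By mean CPM over the 9 libraries, the most abundant transcripts of B_cell_1 included Malat1 (27910), Cd74 (26391), Gm42418, Rps27, Fau, Rps24, Actb, Tmsb4x and Rpl13 (7479). Cd74, the invariant chain that guides MHC class II to its peptide, lay between 23799 and 30200 CPM in all libraries. Malat1 and Gm42418 ranged from 7336 to 80125 and from 45.1 to 27109 CPM and differed between Facilities.

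The first comparison asked whether B_cell_1 takes a different share of the immune cells in the medulla than in the cortex. Of all cells, B_cell_1 made up 13.3, 12.9 and 16.3% in cortex, OM and IM of Aachen, 26.8, 26.7 and 25.4% at Bonn and 14.6, 16.1 and 18.6% at Hamburg. The shares of Bonn lay above those of the other Facilities, while the compartments of a Facility differed little. The medulla (the mean of OM and IM) stood 1.09 ± 1.78 percentage points above the cortex (SD, n = 3 Facilities; exact permutation test within Facilities, two-sided, p = 0.444, adjusted p = 0.667 over 4 comparisons). Of all B cells, B_cell_1 made up 89.4, 92.2 and 94.96% at Aachen, 89.5, 89.7 and 90.5% at Bonn and 78.6, 76.1 and 77.0% at Hamburg. Hamburg lay below the other Facilities in each compartment, and the medulla differed from the cortex by 0.895 ± 3.14 points (n = 3; exact permutation p = 0.556). Without Aachen this difference was -0.748 points.

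A share of sorted cells depends on the other cells in the sort. Macrophage clusters made up 38.6, 63.9 and 33.4% of the cells in cortex, OM and IM of Aachen, 16.4, 30.3 and 36.9% at Bonn and 13.5, 27.2 and 17.1% at Hamburg. Of the cells outside these clusters, B_cell_1 made up 21.7, 35.8 and 24.5% at Aachen, 32.1, 38.3 and 40.2% at Bonn and 16.8, 22.1 and 22.4% at Hamburg. Both medullary shares were above the cortical share in each of the 3 Facilities. This share was not among the planned comparisons. The difference was 7.02 ± 1.54 points (n = 3; exact permutation p = 0.037, the smallest that 27 arrangements allow; adjusted p = 0.185 over 5 comparisons). It was 6.29, 6.94 and 7.82 points without Aachen, Bonn and Hamburg. Numbers of cells per kidney were not measured, so that more B_cell_1 cells and fewer cells of the other types cannot be told apart.

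**Figure D2:**
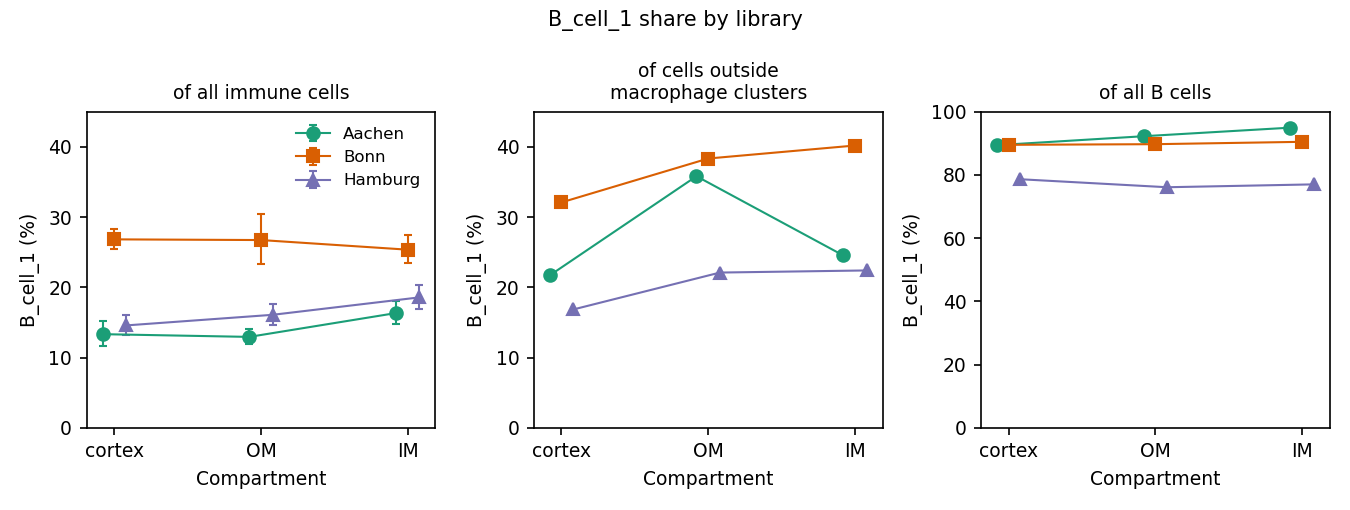
Share of B_cell_1 in percent of all immune cells, of the cells outside the macrophage clusters and of all B cells, by compartment; each point is a library, lines join the libraries of a Facility, and bars in the left panel are exact 95% binomial intervals that cover counting error only. Outside the macrophage clusters the OM and IM lie above the cortex in each Facility, by 5.41 to 8.48 points for their mean.

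Gene levels were compared by summing the counts of the B_cell_1 cells of each library and fitting edgeR's quasi-likelihood model with the Facility as a block. Of 8537 genes tested, 11 passed an adjusted p (Benjamini-Hochberg over all genes tested) of 0.05 between medulla and cortex, 2 higher and 9 lower, which is 0.129% of the genes, with 0.0234% higher and 0.105% lower. Of these 11, 9 were immunoglobulin variable genes, and the others were Kap and Ifng. Immunoglobulin genes were at 0 in the Aachen libraries, so that the results for these 9 rest on Bonn and Hamburg. At an unadjusted p under 0.05 there were 277 genes, and DESeq2 called 0. Between OM and cortex 8 genes passed (0.0937% of the genes, with 0.0351% higher and 0.0586% lower). Between IM and cortex 5 passed (0.0586%, with 0.0117% higher and 0.0469% lower), and between OM and IM 2 (0.0234%, both lower). The median log2 fold change over all genes was 0.00462 for medulla against cortex. The fit was narrow enough to bound most changes: the 95% interval lay within 1 log2 unit of 0 for 6815 genes (79.8%), and for 1216 of the 1228 genes with at least 100 CPM.

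The transcriptome of B_cell_1 was described by 18 lists of B cell and tissue programmes. None of their 199 tested entries passed in any of the 4 contrasts in the main edgeR fit, beside the backgrounds of 0.129, 0.0937, 0.0586 and 0.0234% of all genes. The list medians between medulla and cortex ran from -0.125 to 0.295 log2 units. Without Bonn 3 entries passed between medulla and cortex (Hspa1b, Jchain and Klf2), and without Hamburg 2 (Hspa1a and Hspa1b), while the genes called in all rose to 49 and 51. Of the 16 genes of B cell identity, 9 had a fold change above 0 and the median was 0.0049. Cd79a differed by -0.03 (SE 0.08), Ms4a1 by 0.06 (SE 0.10) and Ebf1 by 0.02 (SE 0.08) log2 units. Pax5, which keeps B cells committed, was higher in the medulla of each Facility, with 130, 133 and 161 CPM at Aachen, 147, 214 and 181 at Bonn and 137, 161 and 149 at Hamburg. Its log2 fold change of 0.28 (SE 0.12) did not pass (edgeR, adjusted p = 1.0).

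Genes that mark where a B cell lives or goes gave similarly small differences. All 10 follicular genes were tested, with 6 above 0 and a median of 0.0319 log2 units, and of 9 tested marginal zone and B-1 genes 1 was above 0 (median -0.125). The 15 genes of trafficking and residency had a median of -0.0303, and the 14 of B cell receptor signalling one of 0.0232. Klf2, which keeps lymphocytes in circulation, stood at 7188, 3400 and 5089 CPM at Aachen, 1252, 1249 and 1509 at Bonn and 6292, 5973 and 5361 at Hamburg. Its level was lower in the medulla than in the cortex at Aachen and Hamburg and not at Bonn, with a log2 fold change of -0.25 (SE 0.12; edgeR, adjusted p = 1.0). The 7 tested toll-like receptors, sensors of microbial products, were all above 0, with a median of 0.244, and none passed (edgeR). Tlr7, which senses RNA, differed by 0.79 (SE 0.41) log2 units.

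No member of the remaining lists of B cell states passed between medulla and cortex (edgeR). All 13 genes of MHC class II and antigen presentation were tested, with 7 above 0 and a median of 0.00613. Of 9 tested BAFF and cytokine receptors, which carry survival signals, 1 was above 0 (median -0.0592). Of 13 tested interferon-response genes 6 were above 0 (median -0.0241), with Rtp4 at -1.05 (SE 0.39) and Zbp1 at -0.72 (SE 0.30). Of 10 tested cell cycle genes 3 were above 0 (median -0.115), with medians of -0.334 for OM against cortex and 0.0762 for IM against cortex, and Mki67, which marks dividing cells, was at most at 3.48 CPM. Of the list of immature cells 3 of 8 genes were high enough to be tested (median 0.134), of germinal centre and memory cells 3 of 10 (median 0.295, the highest of the 18 list medians in this contrast) and of plasma cells 6 of 8 (median -0.0958). Zbtb20, a factor of plasma and memory cells, had the smallest unadjusted p of these (0.42, SE 0.18) and did not pass.

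Programmes that answer to low oxygen and high salt were examined because of the milieu of the medulla. Of 17 tested genes of hypoxia and glycolysis 6 were above 0 in medulla against cortex (median -0.0253). The OM and the IM differed in sign, with 7 of 17 above 0 and a median of -0.0729 for OM against cortex and 12 of 17 and 0.103 for IM against cortex. Between OM and IM 5 of 17 were above 0 (median -0.147), and 3 had an unadjusted p under 0.05 (Ldha, Bnip3 and Ankrd37) with none passing. Ldha, which makes lactate, stood at 120, 109 and 167 CPM for Aachen, 187, 108 and 177 for Bonn and 152, 146 and 173 for Hamburg in cortex, OM and IM. The OM was its lowest compartment at each Facility, and OM differed from IM by -0.45 (SE 0.17; edgeR, adjusted p = 1.0). Of 8 tested genes of the osmotic response 4 were above 0 in medulla against cortex (median -0.00358). Nfat5, the transcription factor of the osmotic response, stood at 55.2, 51.3 and 71.2 CPM at Aachen, 59.6, 82.7 and 69.7 at Bonn and 69.0, 75.8 and 74.1 at Hamburg, with compartments that overlapped. Its log2 fold change was 0.22, with a 95% interval from -0.10 to 0.53. Slc2a1, the glucose transporter that hypoxia induces, differed by 0.10 (interval -0.40 to 0.60). For Nfat5 and Slc2a1 the intervals exclude a 2-fold rise. Akr1b3, which makes the osmolyte sorbitol, differed by -0.11 (interval -0.39 to 0.17).

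**Figure D3:**
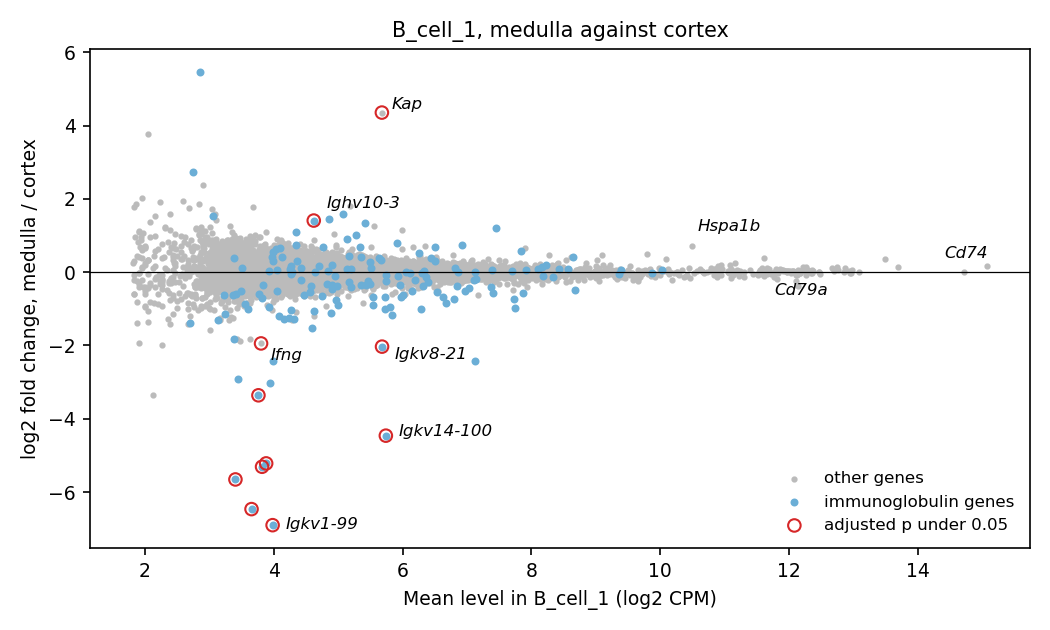
Log2 fold change of each of 8537 genes in B_cell_1 between medulla and cortex against its mean level in log2 CPM, with immunoglobulin genes in blue and the 11 genes with an adjusted p under 0.05 (edgeR) ringed. The spread of the unringed genes narrows around 0 as the level rises, and of the ringed genes only Kap and Ifng are no immunoglobulin genes.

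The heat shock gene Hspa1b came nearest to the threshold among the list members. Hspa1b and its neighbour Hspa1a encode the inducible HSP70 chaperone and lie on chromosome 17 (chr17:34956436-34959238 and chr17:34969190-34972156 of GRCm38, minus strand). Their coding sequences differ at 8 of 1926 aligned bases (99.6% identical), so that reads within them can be hard to assign. The ends of the coding sequences, from base 1810 to the stop codon (GENCODE M21, GRCm38), are shown because they hold the difference in length between the genes. Capitals mark the bases that differ and the codon that Hspa1b has in addition.
Hspa1a: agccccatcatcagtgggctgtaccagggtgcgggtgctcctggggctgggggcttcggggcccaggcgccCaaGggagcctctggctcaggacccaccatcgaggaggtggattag
Hspa1b: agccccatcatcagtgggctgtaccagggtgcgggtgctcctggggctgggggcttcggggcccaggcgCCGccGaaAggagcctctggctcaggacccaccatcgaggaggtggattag

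Hspa1b stood at 341, 447 and 545 CPM in cortex, OM and IM of Aachen, at 146, 407 and 306 at Bonn and at 3033, 3929 and 3908 at Hamburg. Both medullary compartments exceeded the cortex in each Facility, and Hamburg stood far above the others in every compartment. The log2 fold change was 0.72 (SE 0.14; edgeR, adjusted p = 0.0545), and it passed in 11 of 22 alternatives, with values from 0.44 to 1.01. Hspa1a stood at 2719, 2274 and 3404 CPM, at 240, 452 and 452, and at 5470, 6100 and 6258. Its log2 fold change was 0.37 (SE 0.12; edgeR, adjusted p = 1.0). The medulla effect on Hspa1b in B_cell_1 exceeded that in T cells by 0.35 (SE 0.10) log2 units and that in resident macrophages by 0.16 (SE 0.15), and neither difference passed (edgeR, adjusted p = 0.1003 and 0.957). Of the 12 genes of the heat shock list 2 were above 0, and the list median was -0.108. Hspa8, the constitutive family member, was at 1652 to 5197 CPM and differed by -0.13 (SE 0.08).

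Immediate early genes, which cells switch on within minutes of a stimulus and also during tissue digestion, lay lower in the OM than in the IM for most members. Of 27 tested, 4 were above 0 in OM against IM, with a median of -0.372 beside 0.00274 for all genes, and 10 had an unadjusted p under 0.05. None passed over all genes in the main fit. Fos stood at 2222, 966 and 1840 CPM in cortex, OM and IM of Aachen, at 175, 204 and 670 at Bonn and at 2116, 1909 and 2016 at Hamburg. Junb stood at 2779, 1597 and 2909 CPM, at 339, 331 and 775, and at 3062, 3512 and 3491. Nr4a1, which B cell receptor signals induce, stood at 376, 254 and 431 CPM, at 31.7, 2.12 and 166, and at 1984, 2258 and 2401. The OM was the lower of the medullary compartments at Aachen and Bonn for all 3 genes, whereas at Hamburg OM and IM were close. The log2 fold changes of OM against IM were -0.90 (SE 0.29) for Fos, -0.65 (SE 0.19) for Junb and -0.95 (SE 0.38) for Nr4a1. Without Hamburg, 8 members of the list passed between OM and IM, where 68 of the 5376 genes then tested passed in all, against 2 of 8537 with all Facilities. With all Facilities kept, Fos, Junb and Nr4a1 passed with immunoglobulin genes left out (11 of 8315 genes called) and with all genes of at least 1 count (55 of 15646). They also passed among genes with a count at each Facility (11 of 7694), an alternative chosen after seeing the data.

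Some genes that passed are known as genes of other cell types. Kap (chr6:133849851-133853762, minus strand) is a kidney androgen-regulated gene of proximal tubule epithelium. It stood at 10.0, 0 and 0 CPM in cortex, OM and IM of Aachen, at 4.88, 50.9 and 305 at Bonn and at 0, 0.295 and 0.495 at Hamburg. High values were confined to Bonn, where Kap was found in 1.42, 10.2 and 55.4% of B_cell_1 cells. In the T cells of Bonn it was found in 0.920, 8.47 and 51.2%, and it reached 240 CPM in the T cells and 145 CPM in the resident macrophages of the IM. The log2 fold change of medulla against cortex was 4.36 (SE 0.54; edgeR, adjusted p = 0.00164) and that of IM against cortex 5.65 (SE 0.48; adjusted p = 4.89e-05). DESeq2 gave -1.14 and -0.43 for the same contrasts, and without the cortex library of Bonn the edgeR values were -4.36 and -3.07. In the IM the 18 markers of nephron epithelium, Kap among them, summed to 55.8 to 446 CPM, against 83.4 to 123 for the OM and 77.7 to 93.6 for the cortex, and Aqp2 reached at most 1.66 CPM in each library. Kap thus moved in the same libraries in other cell types, and the part of free RNA in the Kap result was not tested.

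Ifng (chr10:118441046-118445892, plus strand) encodes interferon gamma, a cytokine of T and NK cells. It stood at 30.1, 3.02 and 21.7 CPM at Aachen, at 0.697, 0 and 0 at Bonn and at 59.9, 13.5 and 14.5 at Hamburg, against 113 to 936 CPM in the T cells of these libraries. The cortex was the highest compartment in each Facility, and the log2 fold change was -1.94 (SE 0.36; edgeR, adjusted p = 0.0481). The UMIs came from few cells: in the cortex of Aachen 1 cell held all 6, and in the cortex of Hamburg 15 cells held 60.0, of which 25.8 lay in a single cell. At Bonn 2 cells of the cortex held 2 UMIs in all. The OM and IM of Bonn held 0, which does not show absence there. Cd3e (chr9:44998740-45009627, minus strand), a chain of the T cell receptor complex, stood at 20.1, 6.04 and 58.9 CPM, at 8.71, 0 and 12.3, and at 46.1, 5.27 and 36.3. The OM was the lowest compartment in every Facility, and OM differed from cortex by -2.81 (SE 0.50; edgeR, adjusted p = 0.0393) and from IM by -3.02 (SE 0.49; adjusted p = 0.0459). Cd3e was found in 1.80, 1.05 and 2.82% of the B_cell_1 cells of Aachen, Bonn and Hamburg.

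Marker lists of other cell types, of which Kap and Cd3e are members, were summed in B_cell_1 as well. In the T cells Ifng stood at 551, 230 and 376 CPM in cortex, OM and IM of Aachen. It stood there at 113, 135 and 209 CPM at Bonn and at 936, 501 and 479 at Hamburg. As in B_cell_1, its T cell level was thus highest in the cortex at Aachen and Hamburg, though not at Bonn. The part of T cell RNA in the Ifng result was not tested. The sum of the 12 T cell markers in B_cell_1 was higher in the IM than in the cortex at Aachen (390 against 176 CPM) and Bonn (79.3 against 55.8). For the OM the 12 T cell markers summed to 10.6 to 172 CPM, against 55.8 to 288 for the cortex and 79.3 to 390 for the IM. Of 9 tested, 1 was above 0 in medulla against cortex (median log2 fold change -0.934) and 0 in OM against IM (median -1.35), where Cd3e passed. For resident macrophages the 12 markers summed to 443 to 3445 CPM in the OM, 600.5 to 1840 in the IM and 590 to 890 in the cortex, and of 8 tested all 8 were above 0 in medulla against cortex (median 0.938) with none passing. The highest sums were those of OM and IM of Aachen, where C1qa, a complement chain of resident macrophages, stood at 302 and 183 CPM against 45.1 in the cortex. C1qa was at 4.24 to 34.2 CPM in the other Facilities, and its log2 fold change of 1.25 (SE 0.36) did not pass (edgeR, adjusted p = 0.759). The 8 markers of NK cells summed to 0 to 102 CPM, the 8 of monocytes and neutrophils to 250 to 532, the 6 of plasmacytoid dendritic cells to 169 to 276 and the 9 of endothelium and erythrocytes to 53.9 to 148, of which 3 were at 0 in every library. Cells of other types in the B_cell_1 droplets and free RNA were not told apart, and their part in these results was not tested.

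Levels of immunoglobulin constant genes are given for Bonn and Hamburg only, since Aachen listed them at 0. The fold changes came from the fit of all 9 libraries, to which Aachen added no counts of these genes. Ighm, the heavy chain of IgM, stood at 1055, 1146 and 1087 CPM in cortex, OM and IM of Bonn and at 976, 906 and 845 at Hamburg. Ighd, the heavy chain of IgD, stood at 493, 566 and 458 CPM and at 263, 280 and 306. Bonn lay above Hamburg for both genes in every compartment. The log2 fold changes of medulla against cortex were -0.05 (SE 0.11) for Ighm and 0.08 (SE 0.13) for Ighd. Of the class-switched genes, Igha alone was high enough to be tested beside Ighm and Ighd, since Ighg1, Ighg2b, Ighg2c, Ighg3 and Ighe were too low.

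The class-switched share of the heavy chain constant UMIs was 0.715, 0.493 and 1.48% in cortex, OM and IM of Bonn and 1.48, 11.5 and 1.67% at Hamburg. The OM of Hamburg stood apart, since 1 cell held 149 of its 161 Igha UMIs and the share was 1.09% without that cell. The medulla differed from the cortex by 2.70 ± 3.43 points (n = 2 Facilities; exact permutation p = 0.667, where the smallest p of 9 arrangements is 0.111). In 18 of 2626 cells with heavy chain UMIs the switched genes outnumbered Ighm and Ighd together.

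The lambda constant genes stand on chromosome 16 (minus strand, GRCm38) as Iglc1 at chr16:19061618-19062071, Iglc2 at chr16:19198396-19200351 and Iglc3 at chr16:19065230-19065681. Iglc2 and Iglc3 differ at 11 of 315 coding bases (96.5% identical), so that the split of reads between them is uncertain and their sum was used. The first 120 bases from a start that Iglc1, Iglc2 and Iglc3 share (GENCODE M21, GRCm38) are shown, with capitals for bases that differ from Iglc2. They hold 7 of the 11 differences between Iglc2 and Iglc3.
Iglc1: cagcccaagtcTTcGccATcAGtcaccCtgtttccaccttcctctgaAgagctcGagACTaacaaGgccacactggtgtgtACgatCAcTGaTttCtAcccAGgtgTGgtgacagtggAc
Iglc2: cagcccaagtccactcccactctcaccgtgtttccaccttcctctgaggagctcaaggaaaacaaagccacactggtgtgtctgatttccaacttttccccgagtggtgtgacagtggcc
Iglc3: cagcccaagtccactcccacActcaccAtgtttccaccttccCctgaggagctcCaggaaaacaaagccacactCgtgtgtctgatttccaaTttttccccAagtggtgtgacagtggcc

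Constant and variable light chain genes gave opposite pictures of the light chain of a cell. Igkc, the kappa constant gene, stood at 1424 to 1812 CPM in the 6 libraries, and Iglc2 at 1171 to 1769. By constant genes (more UMIs of Iglc1 to Iglc3 than of Igkc, in cells with at least 5 of them), 80.8, 74.5 and 79.1% of B_cell_1 cells were lambda in cortex, OM and IM of Bonn and 63.6, 70.6 and 72.6% at Hamburg. By variable genes (more Iglv than Igkv UMIs), 3.82, 3.52 and 4.55% were lambda at Bonn and 6.02, 7.16 and 2.84% at Hamburg. In the 2512 cells with a kappa variable gene, the mean cell held 4.87 Igkc and 8.45 Iglc UMIs beside 34.1 of the variable genes, and 73.2% held more Iglc than Igkc. The constant genes thus named most cells with a kappa variable gene as lambda. Neither share passed the test between compartments, with a medulla minus cortex difference of 1.97 ± 8.45 points by constant genes (n = 2; exact permutation p = 0.667) and -0.404 points by variable genes (exact permutation p = 0.889).

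The variable genes described a broad repertoire. Of 2758 B_cell_1 cells at Bonn and Hamburg, 2670 could be given a dominant light chain variable gene (at least 3 UMIs) and 2059 a heavy chain variable gene. They spread over 93 light chain and 90 heavy chain genes. Igkv10-96 was the most frequent light chain gene with 146 cells (5.47%), and Ighv1-26 the most frequent heavy chain gene with 142 cells (6.90%). By mean CPM the leading genes were Igkv1-110 (588), Igkv1-117 (586), Igkv1-135 (554), Igkv6-15 (499) and Igkv10-96 (459). The 2006 cells with both chains formed 1328 pairs of genes, of which 901 were seen in 1 cell only. The largest pair, Igkv9-120 with Ighv1-50, held 8 cells. Of the T cells in the same libraries at most 4.24% held at least 5 UMIs of light chain variable genes, against 85.5 to 98.6% in B_cell_1. Cells with fewer such UMIs were not counted.

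The variable genes that passed between compartments rested on few cells and were singled out after their values were seen. In the 4 contrasts 11 passed, and each was the dominant gene of 2 to 28 cells (median 12). Igkv1-99 (chr6:68541644-68542422, plus strand) was dominant in 3 cells of the cortex of Bonn and 1 of the cortex of Hamburg, and in 0 of OM and IM. Igkv14-100 was dominant in 6, 0 and 5 cells of cortex, OM and IM of Bonn and in 3, 0 and 2 of Hamburg. Ighv3-1 was dominant in 7, 0 and 0 cells of Bonn and 3, 0 and 1 of Hamburg, and Ighv3-8 in 8, 1 and 0 and in 2, 1 and 0. Ighv10-3 went the other way with 6, 4 and 5 cells at Bonn and 2, 8 and 3 at Hamburg. By counting error alone, a count of 0 among the 528 light chain cells of the OM allows a share of up to 0.568%, and among the 356 heavy chain cells up to 0.843%. Of these cells 144 and 121 came from Bonn, where a 0 does not show absence, so that the true share can be higher. Since 0 counts in an arm make the fitted fold depend on the prior count, no fold is given for these genes. In the OM of Bonn, 110 of the 183 variable genes with any cell were at 0, against 25 in the cortex and 53 in the IM of Bonn. Of its B_cell_1 cells 85.5% held at least 5 UMIs of light chain variable genes, against 98.6 and 97.3%. Of the 11 genes, 7 had no cell there.

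**Figure D4:**
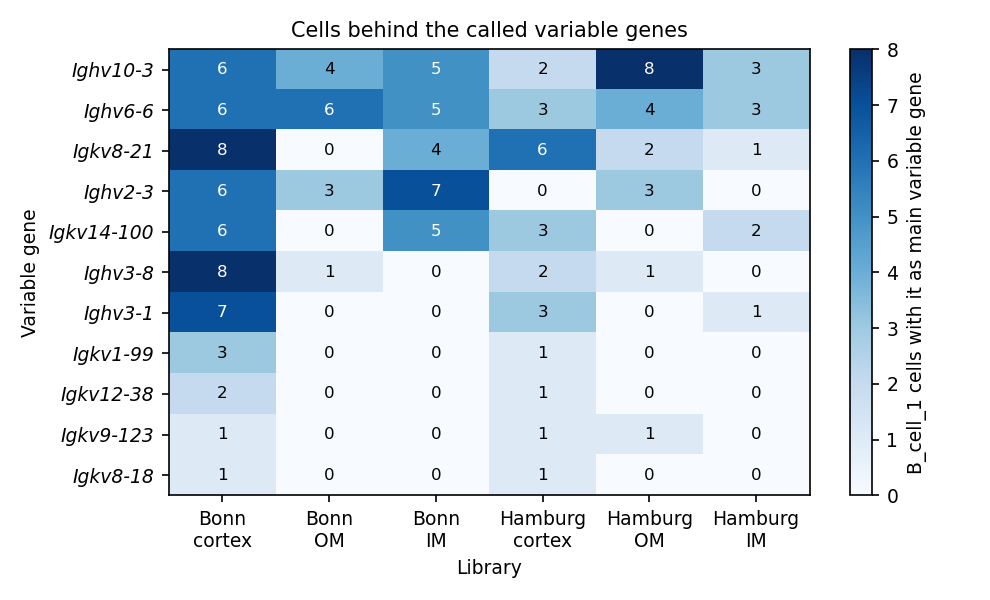
Number of B_cell_1 cells in which each of the 11 immunoglobulin variable genes called in any contrast was the dominant one, by library of Bonn and Hamburg; the colour scale runs from 0 to 8 cells. No box exceeds 8 cells, and the OM of Bonn is at 0 for 7 of the 11 genes.

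Whether an effect of the medulla was particular to B_cell_1 was tested as an interaction with the T cells (T_cell_1 to T_cell_4, 5236 cells) of the same libraries. The effect differed for 35 of 9681 genes (0.362%; edgeR, Benjamini-Hochberg), 14 higher and 21 lower in B_cell_1, with 486 at an unadjusted p under 0.05. Of these 35, 25 were no immunoglobulin genes and 12 were in the lists, 4 of them MHC class II genes with a lower effect in B_cell_1. Cd74 stood at 23987, 24278 and 23799 CPM in the B_cell_1 cells of cortex, OM and IM of Aachen, at 26485, 24125 and 25330 at Bonn and at 29425, 29885 and 30200 at Hamburg. In T cells, which make little MHC class II in the mouse, it stood at 2600, 6221 and 7132 CPM, at 1077, 931 and 678, and at 240, 737 and 363. The level was even in B_cell_1 while in the T cells of Aachen and Hamburg it was higher in both medullary compartments than in the cortex. At Bonn the T cell level was lower in both medullary compartments than in the cortex, so that the Facilities disagreed in direction. The difference of effects was -0.69 (SE 0.07; edgeR, adjusted p = 3.36e-22) for Cd74 and -0.70 (SE 0.09) for H2-Aa, which encodes an MHC class II chain. These SEs and the adjusted p do not carry that disagreement, since edgeR estimates the spread in part across genes. Without Aachen 25 genes passed, without Bonn 17 and without Hamburg 21. In the T cells the 12 resident macrophage markers summed to 1429, 4630 and 3525 CPM for cortex, OM and IM of Aachen, to 250, 173 and 186 for Bonn and to 61.2, 190 and 72.1 for Hamburg. They were thus higher in the medulla of the same Facilities as Cd74, and the part of macrophage RNA in this result was not tested. Plac8, a gene of lymphocytes and monocytes, had a higher effect in B_cell_1 (0.86, SE 0.15), where it stood at 244 to 507 CPM against 39.4 to 147 in T cells.

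Against resident macrophages (5367 cells) the effect differed for 145 of 9856 genes (1.47%), 123 higher and 22 lower in B_cell_1, with 730 at an unadjusted p under 0.05. Among these were 39 list members, including 10 B cell identity genes that were all higher. Cd79a was even in B_cell_1, as given above, but stood at 215 CPM in the resident macrophages of the cortex of Bonn against 26.3 and 67.3 in its OM and IM, and at 6.19 to 21.7 in the other Facilities. The difference of effects was 1.12 (SE 0.23) for Cd79a and 2.40 (SE 0.41) for Blk, a kinase of B cells (edgeR, adjusted p = 8.97e-06). Both differences came with B cell transcripts counted in the macrophages of the cortex of Bonn, and without Bonn 28 genes passed. Ahnak, a large scaffold protein gene, had a lower effect in B_cell_1 (-1.60, SE 0.22). It stood at 52.7 to 157 CPM there, and in macrophages at 3.96, 67.4 and 19.2 CPM in cortex, OM and IM of Aachen, 87.2, 237 and 251 at Bonn and 53.9, 104 and 167 at Hamburg.

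B_cell_1 was set beside B_cell_2 in the 7 libraries with at least 20 cells of both, with 3254 and 321 cells. The clusters were drawn from the same genes, so that differences are a description with no test. Of 3137 genes that reached 50 CPM in the higher cluster, 554 went the same way in all 7 libraries, 178 higher and 376 lower in B_cell_1, and 40 and 61 of these by at least 2-fold in the mean. Vpreb3, a component of the receptor complex in B cell precursors, stood at 197 CPM in B_cell_1 and 729 in B_cell_2 (log2 difference -1.84 ± 0.35, SD over libraries). Spib, a transcription factor of B cells, stood at 115 and 433 CPM (-1.85 ± 0.46). Ifi30, a thiol reductase of antigen processing, stood at 256 and 1111 CPM (-2.19 ± 0.50), and Sox4, a factor of early lymphocytes, at 25.2 and 115. Fam129c (-2.73), Cfp (-2.55), Pafah1b3, Ccnd2 and Fbxl5 were also among the genes that were lowest in B_cell_1.

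The genes highest in B_cell_1 beside B_cell_2 included surface receptors and signalling genes. Gpr183, the oxysterol receptor that positions B cells in follicles, stood at 193 and 61.8 CPM (1.60 ± 0.51). Ccr6, a chemokine receptor of mature B cells, stood at 50.2 and 12.9 CPM (1.56 ± 0.56), and Icosl, the ligand of the T cell costimulator ICOS, at 71.4 and 20.05. Nr4a1 (2.16 ± 1.42) and Plaur (2.26 ± 1.06) led the list, with Hcst, Traf1, H2-Eb2, B4galnt1 and Stat4. By list, 10 of 16 B cell identity genes were lower in B_cell_1 in all libraries and 0 higher, with Ms4a1 at 700 and 1946 CPM. MHC class II gave 5 higher and 0 lower of 12, follicular genes 4 and 1 of 10, immediate early genes 9 and 0 of 22, and cytosolic ribosomal protein genes 67 and 1 of 91. Over all 3137 genes the median log2 difference was -0.131.

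**Figure D5:**
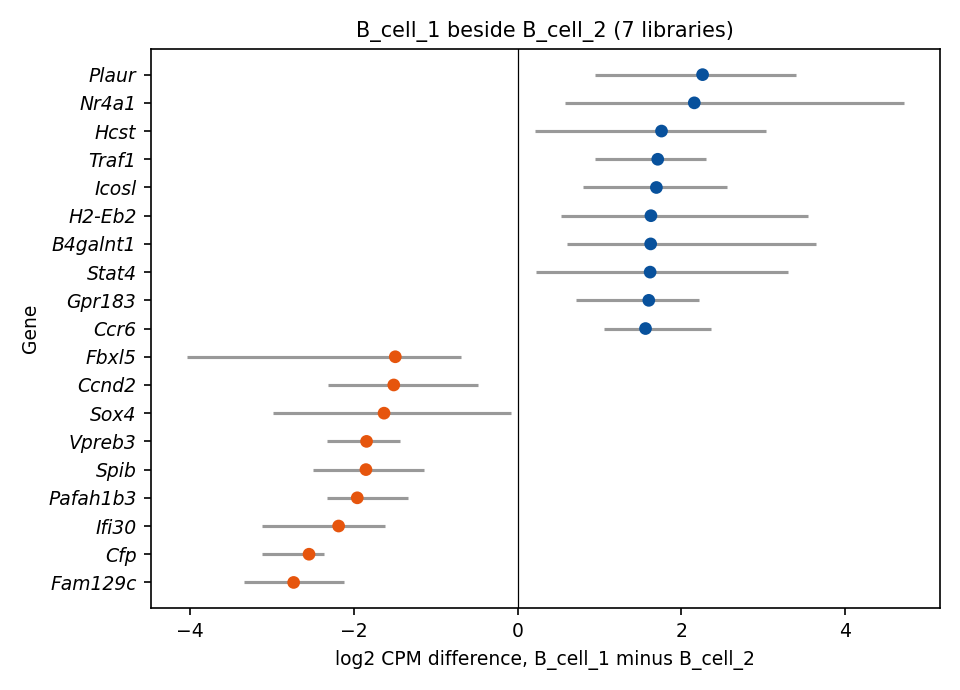
Log2 CPM difference of B_cell_1 minus B_cell_2 for the 10 genes highest in B_cell_1 and 9 of the lowest, as points for the mean and lines from the lowest to the highest of 7 libraries. The values run from -2.73 for Fam129c to 2.26 for Plaur, and no line crosses 0 since genes were chosen for going the same way in every library.

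B_cell_3 could be set beside B_cell_1 in the 3 Hamburg libraries only, where it held 225 of its 247 cells. Its median cell held 750 UMIs there, against 2548 in B_cell_1, and ribosomal protein genes made up 3.74% of its UMIs against 23.5%. Of 4259 genes that reached 50 CPM, 3168 went the same way in the 3 libraries, 836 higher and 2332 lower in B_cell_1. Of 80 ribosomal protein genes 77 were higher in B_cell_1, with a median log2 difference of 2.61, and Rpl35 stood at 2355 and 208 CPM. Plac8 stood at 292 CPM in B_cell_1 and 18.0 in B_cell_3 (3.47 ± 0.52), and Macf1, which links the cytoskeleton, at 386 and 2488 (-2.66 ± 0.10). Huwe1, Ahnak and Abca1 were also among the lowest in B_cell_1, as were Gpx3 of the nephron and the neutrophil genes S100a8 and S100a9. Of the B cell markers, Cd79a stood at 3440 and 2705 CPM, Ebf1 at 958 and 897 and Ms4a1 at 583 and 978 in B_cell_1 and B_cell_3. Of 16 B cell identity genes 3 were higher and 7 lower in B_cell_1 in all 3 libraries.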

How the data were processed

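The authors deposited 1 table of UMI counts for all 20266 cells and 32886 genes with the Facility, compartment and cluster of each cell, made by them with Cell Ranger on mm10 and filtered, integrated and clustered in Seurat. Its values are counts of whole UMIs for the Aachen and Bonn cells and, as deposited, estimated counts that are rarely whole for the Hamburg cells. How the Hamburg values were made is not given in the sources used here.

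Counts of the B_cell_1 cells were summed per library (sums rounded to whole numbers) and tested in R 4.3.3 with edgeR 4.0.16 (filterByExpr, TMM, quasi-likelihood test, Facility as a block, Benjamini-Hochberg over all genes tested, threshold 0.05), with DESeq2 1.42.0 as an alternative. Interactions with T cells and resident macrophages had a term for each library. Shares were compared by exact two-sided permutation within Facilities, and intervals and floors (a count of 0 read as 3 counts) cover counting error only. A cell was counted as having a UMI at a value of 0.5 or more. The deposited Facility column pairs the libraries: over 1165 genes, deviations from the compartment means correlated at 0.94 to 0.98 within a Facility and at most at 0.473 between Facilities. Doublets were scored with Scrublet in scanpy 1.11.5 and left in except in an alternative. The test scripts were tested on simulated data.

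The members and the gene lists were chosen with earlier results of these data known. Genes named are the marker genes, list members past the threshold, the 10 leading genes in each direction past the threshold with the same direction in every Facility, the 10 highest and lowest genes beside each other B cell cluster, the 10 most abundant genes and the 5 most abundant variable genes; others named with values were chosen after those were seen. A few genes that meet these rules are not reported here. Comparisons of B_cell_1 with B_cell_2 and B_cell_3 used log2(CPM + 10) and libraries with at least 20 cells of both. Coordinates and sequences came from GENCODE M21 on GRCm38, the assembly behind mm10.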

Additional observations from a re-analysis of the deposited data

Results flagged for a closer look

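The effect of the medulla differed between B_cell_1 and T cells for 35 genes by a test of the difference itself (edgeR, adjusted p under the threshold). Among them Cd74 differed by -0.69 and H2-Aa by -0.70 log2 units, with even levels in B_cell_1. Medullary levels were higher in the T cells of Aachen and Hamburg and lower in those of Bonn. In the T cells of Aachen and Hamburg the 12 resident macrophage markers were also higher in the medulla. Their sums were 1429, 4630 and 3525 CPM in cortex, OM and IM of Aachen and 61.2, 190 and 72.1 for Hamburg. Plac8 differed by 0.86 log2 units, with T cell levels that were lower in the medulla at Bonn and Hamburg.

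The effect differed between B_cell_1 and resident macrophages for 145 genes by the same test. Blk differed by 2.40 and Cd79a by 1.12 log2 units, and Ahnak by -1.60. The first pair are B cell genes, which stood highest among macrophages in the cortex of Bonn, whereas Ahnak was higher in the medullary macrophages of each Facility than in their cortical counterparts. No explanation of these differences was tested.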

How the results depend on the processing

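Results with a test across genes rested on the Facilities and on the model. Of the alternative values for the main results, 56 kept their direction and side of the threshold, or a count within 1.5 times, while 36 gained calls, 23 lost calls and 5 turned direction. DESeq2 called 0 genes between medulla and cortex, OM and cortex, and IM and cortex (81, 124 and 35 at an unadjusted p under 0.05) and 1 between OM and IM. With all genes of at least 1 count, 77, 85, 57 and 55 genes passed in the contrasts of medulla, OM and IM against cortex and of OM against IM. Without immunoglobulin genes 7, 22 and 11 passed for medulla against cortex, OM against cortex and OM against IM. With cells thinned to 500 UMIs 0, 2 and 0 passed in the first 3 contrasts. Without doublets 1 passed for OM against IM. Among genes with a count at each Facility, an alternative chosen after seeing the data, 24, 11 and 11 passed for OM and for IM against cortex and for OM against IM, and among genes with no library at 0 in a Facility that lists them, also chosen after, 5, 15, 2 and 7 passed in the 4 contrasts.

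With no replicate block for the Facilities, 0 genes passed in each of the 4 contrasts (edgeR; 12, 23, 7 and 27 at an unadjusted p under 0.05) and 0 in both interactions. The 4 share differences, 1.09, 0.895, 1.97 and 2.70 points, had exact permutation p of 0.714, 0.774, 0.800 and 0.667 without the block.

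Leaving out 1 Facility or library gave 8 to 51 genes for medulla against cortex (49 without Bonn, 51 without Hamburg, 36 without the OM library of Hamburg and 19 without that of Bonn). It gave 5 to 80 for OM against cortex (57 without Bonn, 80 without Hamburg), 5 to 28 for IM against cortex (28 without Bonn, 26 without Hamburg) and 1 to 68 for OM against IM (31 without Bonn, 68 without Hamburg). It gave 17 to 25 for the interaction with T cells and 28 to 172 for that with macrophages (28 without Bonn). The shares moved within 0.263 to 2.03 points of all cells, -0.748 (without Aachen) to 2.38 of B cells, -4.00 (without Hamburg) to 7.95 for lambda cells and 0.272 (without Hamburg) to 5.12 for switched UMIs. Outside the macrophage clusters the share difference was 7.02 points. The lambda difference turned to -0.30 points with at least 1 light chain UMI, to -6.88 with at least 20 and to -0.40 by variable genes.

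Kap was -1.14 (medulla) and -0.43 (IM) by DESeq2, and with libraries left out it ran from -4.36 to 4.61 and from -3.07 to 5.91, both low values without the cortex library of Bonn. Ifng lost its call in 9 of 20 alternatives and Cd3e in 7 of 19 for each contrast. The causes were not tested. Depth limits genes of few UMIs: the called variable genes were dominant in 2 to 28 cells each, and the Aachen libraries gave no value for immunoglobulin genes.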
